A study of Homo sapiens with 6 samples.

Results

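The genes described here are 10 nuclear genes that regulate the transcription and upkeep of mitochondrial DNA (mtDNA) and the formation of new mitochondria, PPARGC1A, PPARGC1B, NRF1, TFAM, TFB1M, TFB2M, POLRMT, TEFM, LRPPRC and POLG. They were chosen by name, as rows whose gene symbol equals a listed member, and the list was drawn up with earlier results of these data known. All 10 were found among the 31369 genes of the count table, in the FPKM table as well, and all 10 passed the filter on low counts, which left 15878 genes tested.

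RNA from HK-2 cells, an established line derived from human kidney tubule, was sequenced in a control group (NC, 3 samples) and an overexpression group (OE, 3 samples), which had received a *PPM1K* plasmid with a lipid reagent. *PPM1K* encodes a phosphatase of the mitochondrial matrix that activates the breakdown of branched-chain amino acids, and the comparison of OE with NC asks what its overexpression does to the cells' transcripts. The genotype entries of the labels give WT for NC and PPM1K overexpress for OE, while the titles of the same samples name shControl and shPPM1K. Every sample of both groups also carries the treatment entry Chronic kidney disease and the time Day 10, although all are cultured cells, and the number after HK in the cell line entry differs from sample to sample. What the control cells were transfected with is not given in the sources used here. The labels do not say whether the samples came from separate cultures, so p-values measure only the spread between these samples, which may be technical.

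*PPM1K* was counted 37, 19 and 53 times in NC and 3294, 3531 and 2919 times in OE, which fits the genotype entries and not a knockdown as named in the titles. The samples held 34635770 to 39850802 counts. NC replicate 2 stood apart, with 26478 genes counted at least once against 22094 to 22913 in the other samples, and 3551 genes counted there alone against 449 to 766. In the paper's read distribution it also had the highest intronic, intergenic and antisense shares. There, every NC sample had larger shares of these reads than every OE sample. Whether this difference between the libraries bears on the fold changes was not tested. Of the kidney epithelium markers, PAX8, KRT8 and KRT18 were at or above an FPKM of 1 in every sample, and PAX2 was below it. All 11 markers of the proximal tubule, among them transporters and brush border genes of that segment, were below an FPKM of 1 in every sample. Their summed FPKM was 0.77 to 1.03 in NC and 0.70 to 0.80 in OE. Among these markers, the label as a tubule line thus rests on those of kidney epithelium, such as PAX8, and not on those of the proximal tubule. The 10 markers of other kidney cell types were also below an FPKM of 1 in every sample, with a summed FPKM of 0.34 to 0.44 in NC and 0.50 to 0.53 in OE, and UMOD, SLC12A1 and AQP2 were at 0 or not listed, as LRP2 and SLC22A6 of the proximal tubule were.

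As background, mtDNA is transcribed by its own phage-like RNA polymerase, POLRMT, which needs TFAM to bend the promoter DNA and TFB2M to open it, and TEFM to keep transcribing along the circle. The nuclear factor NRF1 and the coactivators PGC-1α (PPARGC1A) and PGC-1β (PPARGC1B) switch on the nuclear genes of this machinery, so that the mitochondrial and nuclear parts of the respiratory chain are made together. The tubule epithelium of the kidney is rich in mitochondria, and PGC-1α is known there as a driver of their formation.

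Of the 10 regulators, TFAM and TFB1M rose in OE and POLG and LRPPRC fell, while the other 6 did not pass the test. The call of LRPPRC was lost in 9 of 16 alternative settings and that of TFB1M in 2, while those of TFAM and POLG held in all 16. TFAM was 1.56-fold higher, TFB1M 1.30-fold higher, POLG 0.759-fold and LRPPRC 0.903-fold of the control level. The test was edgeR's quasi-likelihood test over all 15878 genes with Benjamini-Hochberg adjustment, with a call at an adjusted p under 0.05. By this rule 48.6% of all tested genes changed, 24.9% higher and 23.7% lower in OE, so 4 changed genes of 10 is a share near that of all genes. With the added fold change threshold of above 2 or below 0.5, 5.51% of tested genes were called and 0 of the 10 regulators were. The CPM (counts scaled to a common library size by edgeR's TMM method) of the groups did not overlap for 5 of the 10 regulators, against 55.3% of all tested genes. The median log2 fold change of the 10 was 0.14, with 7 positive and 3 negative, against −0.0032 over all tested genes. In bulk RNA, fewer cells expressing a gene and less of its RNA per cell cannot be told apart.

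**Figure D1:**
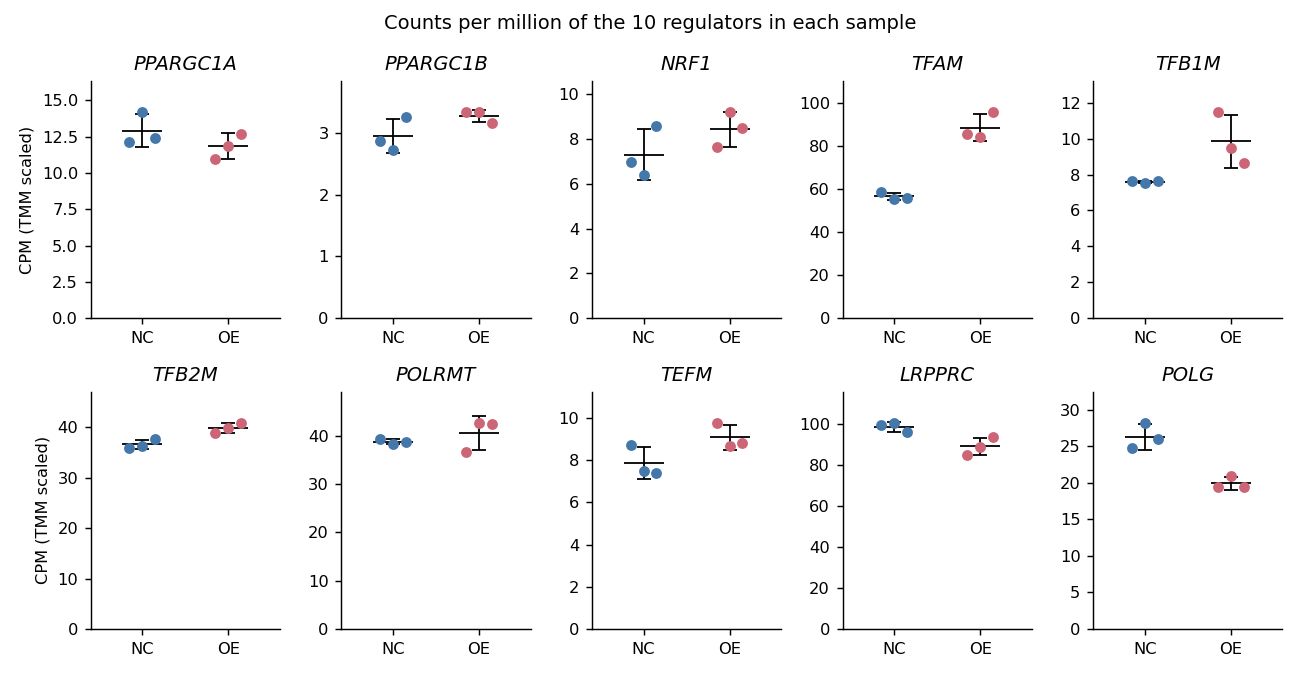
CPM (TMM scaled) of each of the 10 regulators in the 3 NC and 3 OE samples, each panel with its own linear axis from 0, points for samples, and a bar with whiskers for the mean and SD (n = 3). TFAM, TFB1M and TFB2M lie higher in every OE sample than in every NC sample, LRPPRC and POLG lie lower, and the groups overlap for the other 5.

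TFAM, which packs mtDNA into nucleoids and is a factor of transcription initiation, changed most of the 10. Its CPM was 58.6, 55.7 and 56.0 in the NC samples and 85.8, 84.3 and 96.0 in the OE samples, each in the order of replicates 1 to 3, as all values by sample here are. Every OE sample was thus far above every NC sample, and the spread within each group was small, with means of 56.7 ± 1.61 and 88.7 ± 6.40 (SD, n = 3 each). The log2 fold change was 0.64 (SE 0.058, edgeR adjusted p = 1.02e-08). It lay between 0.58 and 0.68 in all 16 alternative settings, and the call held in each of them. TFAM lies on the plus strand of chromosome 10, at chr10:58385345-58399220 of GRCh38 in GENCODE release 44, and overlaps no other annotated gene.

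POLRMT, the polymerase itself, did not pass the test. Its CPM was 39.4, 38.3 and 38.8 in NC and 36.6, 42.8 and 42.4 in OE, with OE replicate 1 below all NC samples and the other OE samples above them. The log2 fold change was 0.06 (SE 0.067, edgeR adjusted p = 0.450). The gene is on the minus strand at chr19:617221-633537 and overlaps no other annotated gene.

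TFB2M, the factor that melts the promoter, had a CPM of 36.0, 36.3 and 37.7 in NC and 38.9, 40.0 and 40.9 in OE. All OE samples lay above all NC samples, by a narrow margin, with means of 36.6 ± 0.901 and 39.9 ± 0.995 (SD, n = 3 each). The log2 fold change of 0.12 (SE 0.061, edgeR adjusted p = 0.0976) did not pass the test. It passed in 1 of the 16 alternatives, limma on log2(FPKM + 1), with an adjusted p of 0.0403. TFB2M lies at chr1:246540561-246566261 on the minus strand and overlaps no other annotated gene.

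TFB1M, the paralog of TFB2M, methylates the small ribosomal RNA of the mitochondrion and is needed for its ribosome. Its CPM was 7.64, 7.50 and 7.62 in NC and 11.5, 9.46 and 8.62 in OE. The NC samples were almost equal, while the OE samples were spread widely and all higher, at 7.59 ± 0.0770 against 9.85 ± 1.47 (SD, n = 3 each). Its log2 fold change was 0.38 (SE 0.11, edgeR adjusted p = 0.00766). The call rested on OE replicate 1, the highest sample, since without it the log2 fold change was 0.26 and the edgeR adjusted p was 0.0726. TFB1M lies at chr6:155256134-155314493 on the minus strand and overlaps CLDN20 and TIAM2 on the other strand and RP11-477D19.2, a long noncoding RNA, on its own strand. Whether the counting used the strand is not given in the sources used here, so reads of an overlap could belong to either gene, and those shared with the noncoding RNA could not be told apart by strand at all. RP11-477D19.2 did not pass the test. TIAM2 fell, with 455, 493 and 471 counts in NC and 253, 313 and 232 in OE and a log2 fold change of −0.92 (edgeR adjusted p = 1.45e-07), so it moved the other way than TFB1M.

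TEFM, the elongation factor, had a CPM of 8.74, 7.47 and 7.37 in NC and 9.78, 8.65 and 8.81 in OE. NC replicate 1 lay within the range of the OE samples, and the other NC samples lay below it. The log2 fold change of 0.21 (SE 0.11, edgeR adjusted p = 0.109) did not pass the test. Without NC replicate 1 it was 0.29, with an adjusted p of 0.0498. TEFM is at chr17:30897336-30906238 on the minus strand and overlaps an unnamed gene on the other strand.

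The promoter sequences of 5 members are printed next, those of the initiation genes POLRMT, TFAM, TFB2M and TFB1M together with POLG, so that members that passed the test stand beside members that did not. They are RefSeq windows on GRCh38.p14, which reach from 250 bases before a gene's start to 50 after it, cut to the bases outside the gene as GENCODE release 44 draws it, and read 5′ to 3′ on the gene's own strand. Capitals mark exact matches, on either strand, of GCATGCGC, the core of the motif bound by NRF1, and of CCGGAAGT, the motif of the ETS factor GABPA. TFAM is at chr10:58385160-58385344, TFB1M at chr6:155314494-155314734, TFB2M at chr1:246566262-246566511, POLRMT at chr19:633538-633787 and POLG at chr15:89334862-89335074, with TFAM on the plus strand and the others on the minus strand.
TFAM: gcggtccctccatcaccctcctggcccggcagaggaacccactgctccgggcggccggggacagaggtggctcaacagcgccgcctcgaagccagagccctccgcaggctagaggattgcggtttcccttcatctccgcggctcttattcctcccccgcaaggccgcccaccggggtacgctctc
TFB1M: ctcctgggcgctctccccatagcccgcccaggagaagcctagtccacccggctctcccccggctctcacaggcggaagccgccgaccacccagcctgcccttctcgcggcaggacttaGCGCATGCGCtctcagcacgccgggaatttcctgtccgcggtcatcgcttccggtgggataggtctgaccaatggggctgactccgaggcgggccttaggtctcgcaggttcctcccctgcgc
TFB2M: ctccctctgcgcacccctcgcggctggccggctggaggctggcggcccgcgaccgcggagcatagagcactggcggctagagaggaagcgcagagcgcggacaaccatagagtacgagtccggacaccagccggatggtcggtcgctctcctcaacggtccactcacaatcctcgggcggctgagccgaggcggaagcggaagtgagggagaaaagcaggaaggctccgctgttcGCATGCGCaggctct
POLRMT: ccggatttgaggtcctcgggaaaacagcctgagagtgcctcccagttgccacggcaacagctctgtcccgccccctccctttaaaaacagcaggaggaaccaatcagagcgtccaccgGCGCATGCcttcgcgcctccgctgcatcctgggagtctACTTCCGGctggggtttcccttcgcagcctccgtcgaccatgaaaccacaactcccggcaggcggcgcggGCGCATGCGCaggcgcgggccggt
POLG: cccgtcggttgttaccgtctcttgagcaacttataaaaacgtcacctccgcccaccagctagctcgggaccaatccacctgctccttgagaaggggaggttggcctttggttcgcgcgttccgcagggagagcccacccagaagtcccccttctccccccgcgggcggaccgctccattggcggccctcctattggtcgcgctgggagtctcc

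RefSeq promoters were found for 9 of the 10 genes, in 10 windows, since PPARGC1A has a pair of starts. The NRF1 core was in 3 of these 10 windows, those of POLRMT, TFB1M and TFB2M, against 3.05% of 35116 promoters of the same length, and it was chosen after the sequences had been seen. The full NRF1 consensus, searched first, was in 0 of the 10 windows and in 1.48% of all promoters. In TFB1M the core was read at positions −132 to −125 on one strand and −130 to −123 on the other, counted from the RefSeq start, so these matches overlap in a stretch that reads the same on both strands. POLRMT held such an overlapping pair at −24 to −17 and −22 to −15 and a further match at −132 to −125, and TFB2M held a match at −15 to −8. CCGGAAGT was in POLRMT, at −94 to −87, and in TEFM, where it crosses the start, against 4.14% of all promoters. CACGTG, the E-box, was in a window of PPARGC1A and in 7.26% of all promoters. That window, at chr4:24472906-24473155 before its start, lies far upstream of the gene as GENCODE draws it. The other window of PPARGC1A held none of the motifs, and which start these cells use was not tested. TGACGTCA and TGATGCAA, the sites of CREB and ATF4, were in none of the 10 windows and in 1.85% and 0.87% of all promoters. Of the genes with the NRF1 core, TFB1M passed the test and POLRMT and TFB2M did not. The windows of TFAM, the member that changed most, and of POLG held none of the motifs searched. Only exact matches within these windows were counted, so a site of another spelling or place would have been missed. The member windows had a median GC content of 65.8% against 58.7% over all promoters.

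POLG, the catalytic subunit of the polymerase that copies mtDNA, was the member that fell most. Its CPM was 24.7, 28.2 and 26.0 in NC and 19.5, 21.0 and 19.4 in OE. Every OE sample was below every NC sample, with means of 26.3 ± 1.78 and 19.9 ± 0.882 (SD, n = 3 each). The log2 fold change was −0.40 (SE 0.076, edgeR adjusted p = 0.000189), and the call held in all 16 alternatives, with log2 fold changes between −0.44 and −0.28. POLG lies at chr15:89305198-89334861 on the minus strand and overlaps FANCI on the other strand and MIR6766 and POLGARF, a reading frame within its own messenger, on the same strand. FANCI had 2563, 2571 and 2683 counts in NC and 3016, 3101 and 2836 in OE, with a log2 fold change of 0.11 that did not pass the test (edgeR adjusted p = 0.0904).

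LRPPRC, a partner of SLIRP in keeping mitochondrial messengers stable and polyadenylated, had a CPM of 99.1, 100.4 and 95.9 in NC and 84.9, 88.4 and 93.4 in OE. The highest OE sample, replicate 3, lay just under the lowest NC sample, replicate 3. The log2 fold change was −0.15 (SE 0.052, edgeR adjusted p = 0.0234). This call was lost in 9 of the 16 alternatives, among them leaving out NC replicate 2, the sample that stood apart, with an adjusted p of 0.0890, and limma on log2(FPKM + 1), with an adjusted p of 0.146. LRPPRC is at chr2:43886224-43996226 on the minus strand and overlaps 3 small or unnamed genes on the other strand.

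None of the 3 upstream regulators passed the test. PPARGC1A, the coactivator PGC-1α, had 422, 500 and 446 counts in NC and 405, 470 and 462 in OE, with a mean CPM of 12.9 ± 1.13 and 11.9 ± 0.875 (SD, n = 3 each). PPARGC1B, the related coactivator PGC-1β, had 100, 96 and 117 counts in NC and 123, 132 and 115 in OE, the fewest of the 10 genes. NRF1, the DNA-binding factor, had a CPM of 6.95, 6.39 and 8.57 in NC and 7.64, 9.21 and 8.48 in OE. The CPM of the groups overlapped for all 3 genes, and NRF1 in NC, with a coefficient of variation of 15.4%, had the widest spread of any member in either group. The log2 fold changes were −0.12 (SE 0.092) for PPARGC1A, 0.15 (SE 0.15) for PPARGC1B and 0.21 (SE 0.12) for NRF1, with edgeR adjusted p of 0.283, 0.428 and 0.155. The value of NRF1 turned on a control sample, since without NC replicate 3, its highest control, the log2 fold change was 0.34 and the adjusted p 0.0349. The genes lie at chr4:23755041-23904089 (minus strand), chr5:149730298-149855022 (plus strand) and chr7:129611720-129757082 (plus strand). PPARGC1A overlaps 2 unnamed genes on the other strand. PPARGC1B overlaps MIR378A, and NRF1 overlaps RNA5SP244 and an unnamed gene, each on its own strand.

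**Figure D2:**
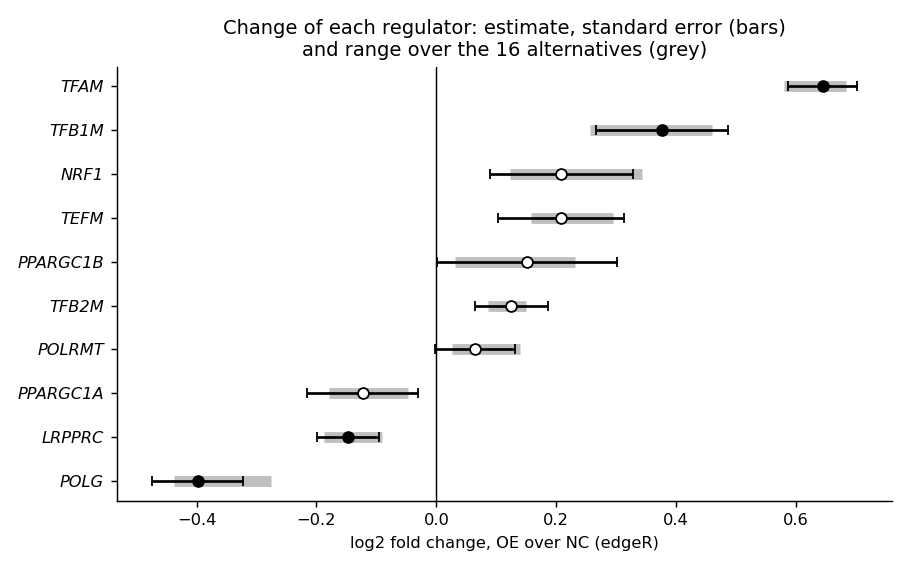
Log2 fold change of OE over NC for the 10 regulators, in order of size, with points for the edgeR estimate (filled where the adjusted p was under 0.05), whiskers for the standard error and grey bars for the range over the 16 alternatives. TFAM (0.64) and POLG (−0.40) lie at the ends, and no grey bar crosses 0.

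To set levels of different genes beside each other, the deposited FPKM was used. The length behind it, taken from counts and FPKM together for all members but PPARGC1B, whose FPKM was too low for it, was close to that of all annotated exons of a gene joined and not to a single transcript, so genes with many unshared exons read lower on this scale than per transcript. On this scale TFB2M was highest, at 18.9 ± 0.522 in NC and 20.9 ± 0.816 in OE (SD, n = 3 each), above 88.1% of the tested genes in NC. TFAM was the second, at 9.90 ± 0.392 in NC and 15.7 ± 1.32 in OE, and POLRMT the third, at 7.07 ± 0.195 in NC and 7.50 ± 0.736 in OE. The samples of these 3 genes did not overlap with their neighbours in either group, so their order stood out from the spread. TFAM stood above 79.7% of the tested genes in NC and above 85.4% in OE.

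The lower members lay closer together. POLG, TEFM and LRPPRC had a mean FPKM of 3.15, 2.74 and 2.61 in NC, and neighbours in this order overlapped. In OE the order turned to TEFM at 3.21, POLG at 2.42 and LRPPRC at 2.39, with TEFM above POLG in every sample. Per kilobase of the canonical transcript, TEFM was above POLG in NC as well, at 6.02 ± 0.583 against 5.89 ± 0.399 CPM (SD, n = 3 each) with overlapping samples, so this turn in the order was seen on the FPKM scale alone. TFB1M and NRF1 overlapped in both groups, at 1.70 and 1.63 in NC and 2.23 and 1.92 in OE. At the bottom, PPARGC1A was at 1.09 ± 0.0839 in NC and 1.02 ± 0.0900 in OE, and PPARGC1B at 0.210 ± 0.0200 and 0.237 ± 0.00577 (SD, n = 3 each). In NC, PPARGC1A stood above 35.1% of tested genes and PPARGC1B above 10.8%. Per kilobase of the canonical transcript, PPARGC1A overlapped NRF1 in NC, at 2.05 ± 0.179 against 2.08 ± 0.321 CPM (SD, n = 3 each), but not in OE.

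The place of LRPPRC depended most on the length used. The length behind its FPKM was 37194 bases, close to the 34689 bases that the exons of its 71 annotated transcripts cover together, while its canonical transcript has 6603 bases. As CPM per kilobase of the canonical transcript, an alternative chosen after the data were seen, LRPPRC moved from rank 6 to rank 2 of the 10 in NC, at 14.9 ± 0.356 against 11.3 ± 0.320 for TFAM (SD, n = 3 each). In OE it was the third on that scale, at 13.5 ± 0.645, behind TFAM at 17.7 ± 1.27.

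**Figure D3:**
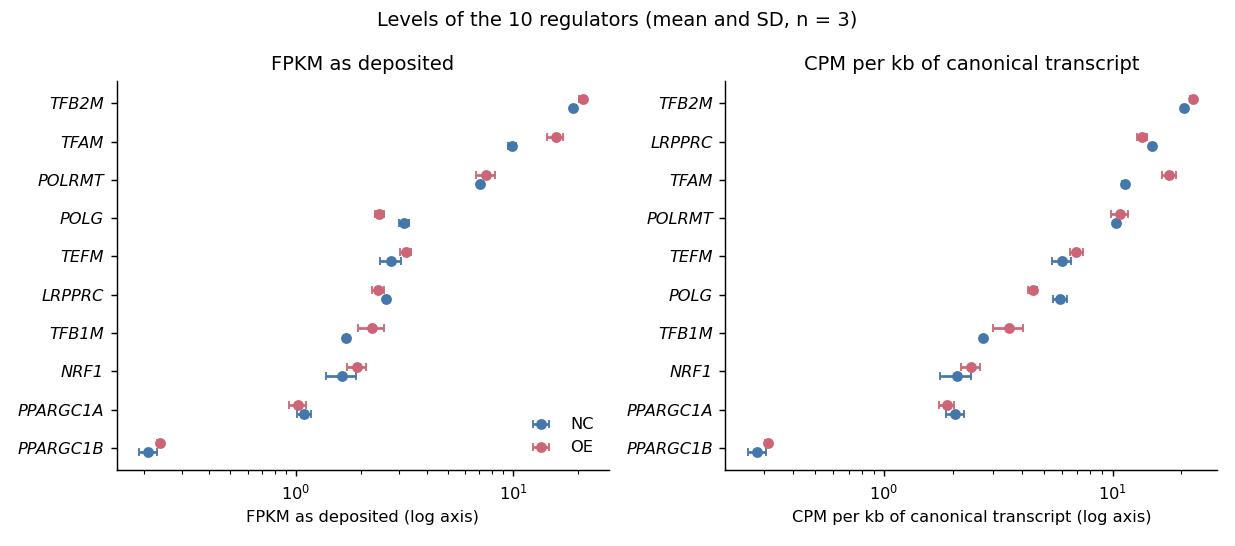
Mean and SD (n = 3) of the 10 regulators in NC and OE on log axes, as deposited FPKM (left) and as CPM per kilobase of the canonical transcript (right), with genes in the order of their NC mean. TFB2M is highest and PPARGC1B lowest on both scales, and LRPPRC stands at rank 6 on the left and at rank 2 on the right.

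Whether paralogs, or partners in a complex or step, moved apart was examined in 6 pairs, in which SLIRP and POLG2 are not members. The measure was the difference of their log2 CPM in each sample. It was tested by exact two-sided permutation over samples, for which 0.1 is the smallest p that 3 samples against 3 allow. The test could therefore not reach 0.05. TFAM lay above POLRMT by 0.55 ± 0.022 in NC and by 1.13 ± 0.13 in OE (SD, n = 3 each, log2 CPM), an increase of 0.58 with groups that did not overlap (exact p = 0.1, adjusted over the 6 pairs 0.3). On the FPKM scale, with its joined exon lengths, TFAM was 1.40 ± 0.0214 times that of POLRMT in NC and 2.10 ± 0.190 times in OE.

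The groups overlapped in the other 5 pairs. The paralogs TFB2M and TFB1M came closer by 0.24 (log2 CPM, OE minus NC −0.24, exact p = 0.2), and the FPKM of TFB2M was 11.1 ± 0.268 times that of TFB1M in NC and 9.51 ± 1.59 times in OE (SD, n = 3 each). LRPPRC against SLIRP, its RNA-binding partner, differed by −0.39 (exact p = 0.2). SLIRP itself passed the test with a log2 fold change of 0.24 (edgeR adjusted p = 0.0132), while LRPPRC fell, although the CPM of SLIRP overlapped between the groups. POLG against POLG2, the accessory subunit of the same polymerase, differed by −0.18 (exact p = 0.4), and POLG2 had a log2 fold change of −0.22 that did not pass the test (edgeR adjusted p = 0.127). PPARGC1A against PPARGC1B differed by −0.28 (exact p = 0.2) and TEFM against POLRMT by 0.15 (exact p = 0.5). Adjusted over the 6 pairs, these exact p lay between 0.3 and 0.5.

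The other genes of the pathway were followed in 4 lists. Of 17 genes of mtDNA replication and maintenance, all tested, 8 rose and 0 fell, with a median log2 fold change of 0.22. Of all tested genes, 24.9% were higher and 23.7% lower, with a median of −0.0032. The 8 changed genes of this list were a share near the 48.6% of all genes that changed. MGME1, the exonuclease that trims newly made ends of mtDNA, had a log2 fold change of 0.58 (edgeR adjusted p = 9.89e-08). TWNK, the helicase of the replication fork, rose by 0.42 (adjusted p = 1.08e-06), SSBP1, which coats single-stranded mtDNA, by 0.38 (adjusted p = 4.82e-06) and LIG3, the ligase, by 0.42 (adjusted p = 0.000237), all by edgeR. POLG thus fell while the helicase and the single-strand binding protein that work beside it at the fork rose. The CPM of TWNK was 109.4, 105.7 and 115.1 in NC and 152.7, 140.9 and 147.4 in OE, so its groups lay well apart.

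Of 32 genes of mitochondrial RNA processing, modification, stability and termination, 31 were tested, 10 rose, 4 fell and 17 did not pass, with a median log2 fold change of 0.12. Of all tested genes, 24.9% were higher and 23.7% lower, and the 14 changed genes of this list were a share near the 48.6% of all genes that changed. The untested gene was MRM2, a ribosomal RNA methyltransferase. By edgeR, the genes with the smallest adjusted p among those higher were MRM3, which methylates the large ribosomal RNA (0.63, adjusted p = 4.33e-07), MTERF4 (0.44, adjusted p = 1.69e-06) and NSUN4 (0.51, adjusted p = 0.000457), which form a complex on the ribosome, and FASTKD2 (0.29, adjusted p = 0.00608), an RNA-binding protein. Lower were RPUSD4, a pseudouridine synthase (−0.59, adjusted p = 1.20e-05), MTERF2, a DNA-binding relative of MTERF4 (−0.49, adjusted p = 4.03e-05), FASTKD1 (−0.61, adjusted p = 0.000753) and ELAC2, which cuts the 3′ ends of transfer RNAs (−0.15, adjusted p = 0.0313).

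A further list held 24 nuclear regulators that work with or act on PGC-1 or NRF1, called partners here for short. It does not sort genes that aid PGC-1 or NRF1 from genes that oppose them, so its counts give no direction of their action. Of the 24, 21 were tested, 15 rose, 1 fell and 5 did not pass, with a median log2 fold change of 0.23. Of all tested genes, 24.9% were higher and 23.7% lower. Without NC replicate 1, NC replicate 3 or OE replicate 3, 10 rose in place of 15. ESRRB, ESRRG and PERM1 did not pass the filter on low counts. The smallest adjusted p among the higher genes belonged to PRKAA2, a catalytic subunit of the energy sensor AMPK (0.76, edgeR adjusted p = 2.80e-05), NFE2L2, the regulator of antioxidant genes (0.31, adjusted p = 4.30e-05), MYC, a growth regulator (0.31, adjusted p = 7.43e-05), and PPRC1, the third coactivator of the PGC-1 family (0.36, adjusted p = 8.09e-05). PPRC1 thus rose, while its relatives PPARGC1A and PPARGC1B did not pass the test. Whether PPRC1 differed from them in its change was not tested, and PPARGC1B had the fewest counts of the members. The CPM of PPRC1 was 53.3, 57.7 and 48.4 in NC and 64.7, 68.5 and 71.0 in OE. PPARA, a lipid-sensing receptor, was the gene that fell (−0.29, edgeR adjusted p = 0.0459), and its call was lost by DESeq2, without a filter on low counts, with the replicate block, in all 3 limma settings and when any sample but NC replicate 3 was left out. ESRRA and GABPA, partners of PGC-1α and NRF1 named after their values were seen, had log2 fold changes of 0.06 and −0.06 and did not pass the test (edgeR adjusted p of 0.604 and 0.605). No gene of these 3 lists passed the fold change threshold of above 2 or below 0.5. Without NC replicate 2, 8 genes of the replication list rose and 0 fell, 8 of the RNA processing list rose and 4 fell, and 14 of the PGC-1 and NRF1 partners rose and 0 fell.

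**Figure D4:**
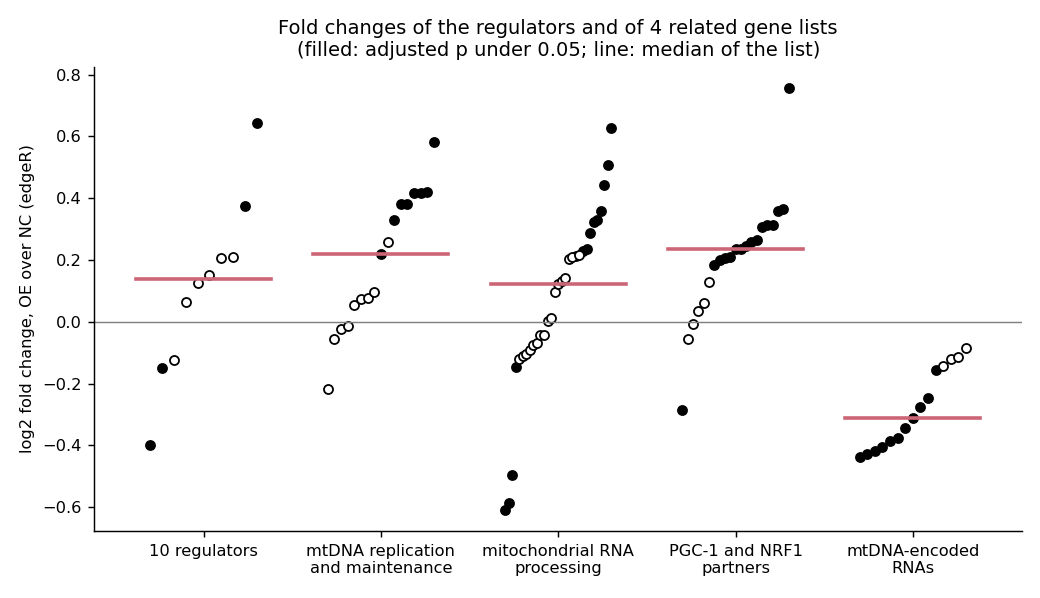
Log2 fold change of OE over NC (edgeR) of the 10 regulators and of the tested genes of 4 related lists, each point a gene (filled where the adjusted p was under 0.05) and each red line the median of the list. The lines lie above 0 for the regulators and the 3 nuclear lists, between 0.12 and 0.23, and at −0.31 for the RNAs encoded by mtDNA.

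The RNAs that the machinery makes were lower in OE. Of the RNAs of the 15 mtDNA genes for ribosomal and messenger RNAs, counted gene by gene, 11 fell, 0 rose and 4 did not pass. Of all tested genes, 23.7% were lower, and the median log2 fold change of the 15 was −0.31. Of these RNAs, MT-CO1 (−0.44, edgeR adjusted p = 4.20e-06) and MT-CO2 (−0.42, adjusted p = 1.16e-05), of cytochrome c oxidase, MT-ND5 (−0.37, adjusted p = 2.06e-05), of complex I, and MT-CYB (−0.39, adjusted p = 6.82e-05), of complex III, had the smallest adjusted p. The CPM of MT-CO1 was 10494, 10621 and 10671 in NC and 8350, 7813 and 7332 in OE, with no overlap. The ribosomal RNAs MT-RNR1 (−0.08, edgeR adjusted p = 0.523) and MT-RNR2 (−0.14, adjusted p = 0.0725) did not pass. Copies of mtDNA sequence exist in the nuclear genome, and reads that matched both would not have been counted as uniquely mapped. The libraries were prepared with an mRNA kit, so the level of ribosomal RNA in them is not that in the cells. How the kit selected messengers is not given in the sources used here. Lower counts of the mtDNA-encoded messengers could therefore not be told apart from a lower yield of them in the libraries, which was not tested.

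MT-ND6, the messenger encoded on the other strand of mtDNA, had a log2 fold change of −0.43 (edgeR adjusted p = 0.0152), but its CPM was 178, 330 and 210 in NC and 205, 154 and 175 in OE. The groups overlapped, and the highest value was that of NC replicate 2, the sample that stood apart. Without that sample 10 of the 15 mtDNA genes were lower and the median was −0.27.

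Together the RNAs of the 15 genes took 8.48%, 8.98% and 9.02% of all counts in NC and 7.72%, 7.16% and 6.71% in OE. Every OE sample was below every NC sample, with means of 8.83% ± 0.300 and 7.19% ± 0.506 (SD, n = 3 each), a difference of −1.63 percentage points (exact two-sided permutation p = 0.1, the smallest possible). The difference was −1.53 percentage points without the ribosomal RNAs, −1.63 without MT-RNR1 and MT-ND6, an alternative chosen after the data were seen, and −3.89 as a share of the FPKM sum, each with the same exact p. TFAM was thus higher in the same OE samples in which these RNAs were lower, while POLRMT did not pass the test and LRPPRC and POLG were lower. Whether these changes are linked was not tested.

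**Figure D5:**
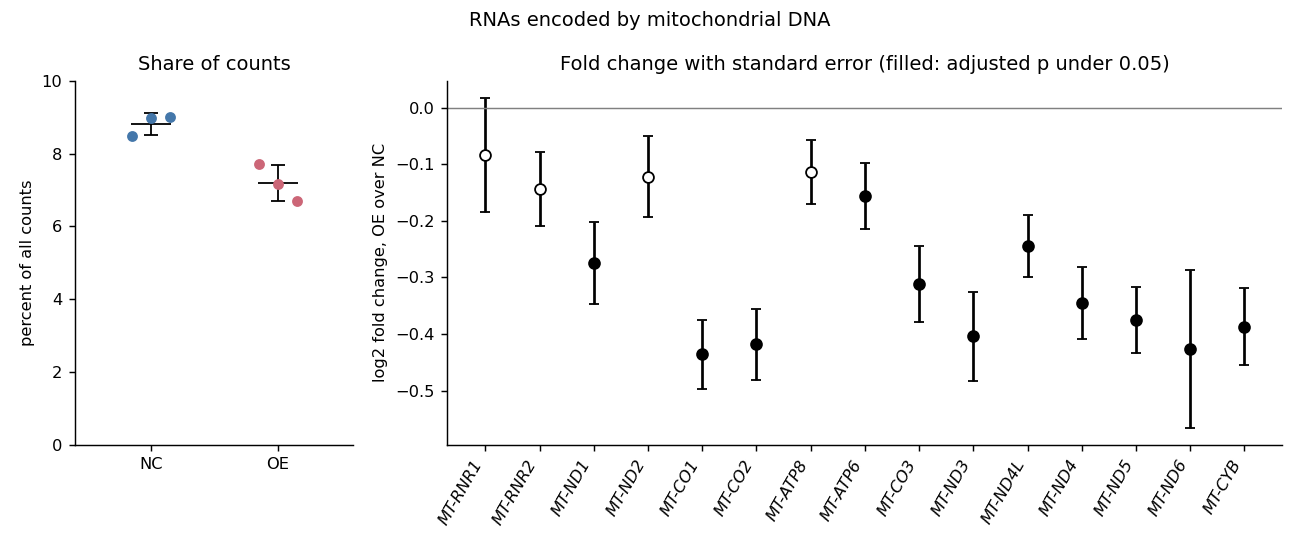
Left, the percent of all counts on the RNAs of the 15 mtDNA genes in each sample, with mean and SD (n = 3). Right, the log2 fold change of OE over NC of each gene with its standard error, filled where the adjusted p was under 0.05. The OE samples (6.71% to 7.72%) lie below the NC samples (8.48% to 9.02%), and all 15 points are below 0.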

How the data were processed

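RNA of HK-2 cells was sequenced in 6 samples, 3 NC and 3 OE, grouped by their genotype entries. The authors trimmed the reads, mapped them with HISAT2 on GRCh38 and took gene counts from the reads that mapped uniquely, from stranded mRNA libraries. The deposited counts are not normalized. The deposited FPKM values are described as scaled by transcript length and by how many fragments mapped in that library. The lengths that counts and FPKM imply are close to the joined exons of each gene in GENCODE. The annotation, the counting program and its strand setting are not given in the sources used here, and mm10, also named in the submitters' processing notes, was given no role. Without version numbers, 99.8% of gene identifiers were found in GENCODE release 44.

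Counts were tested with edgeR 4.0.16 in R 4.3.3 (filterByExpr, TMM, glmQLFit and glmQLFTest), with Benjamini-Hochberg adjustment across all 15878 genes tested. CPM was computed from the deposited counts with TMM-scaled library sizes. The authors used DESeq2, here an alternative (1.42.0), as was limma 3.58.1 on log2(FPKM + 1) and log2(FPKM + 0.1). Further alternatives changed the normalization, the filter, the replicate block and the samples. Statistics were tested on simulated data. Shares of counts and pair differences were tested by exact permutation with scipy 1.17.1. Replicates were not copies of a library (mean chi-square per gene 5.12 to 11.7). At this depth, members had 96 to 3535 counts a sample, and counting error is largest for PPARGC1B. The members and lists were chosen with earlier results of these data known. Named genes are all members, the second gene of each pair, up to 4 genes of each list with the smallest adjusted p in each direction, the mtDNA-encoded ribosomal RNAs and MT-ND6. TIAM2, FANCI and RP11-477D19.2 were added for their overlap with members. Gene Ontology and KEGG terms were not used here. The level of a marker gene is not reported here.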

Additional observations from a re-analysis of the deposited data

How the results depend on the processing

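TFAM and POLG were called in all 16 alternatives, and no member changed sign in any of them. The number of members called, 4, was 2 with limma on log2(FPKM + 1) without a filter on low values and 2 to 5 with each sample left out, the number higher, 2, was 1 under that limma setting and 1 to 3 with samples left out, and the number lower, 2, was 1 without a filter on low counts, with the replicate block and under all 3 limma settings, and 1 to 2 with samples left out. The lost call was LRPPRC in each of these settings with 1 lower member (edgeR adjusted p = 0.0508 without a filter and 0.0720 with the replicate block, limma adjusted p = 0.146 to 0.182), and it was also lost without NC replicate 1 (edgeR adjusted p = 0.0872), NC replicate 2 (0.0890), OE replicate 1 (0.137) or OE replicate 2 (0.0676). TFB1M lost its call without OE replicate 1 (0.0726) and under limma on log2(FPKM + 1) without a filter (0.0583). Of the RNA processing list, 6 genes in place of 10 were higher under limma without a filter and 6 to 9 with samples left out, the lowest without NC replicate 1. PPARA, the 1 lower PGC-1 or NRF1 partner, was not called (0 lower) by DESeq2, without a filter, with the replicate block and by limma in its 3 settings, and 0 to 1 partner was lower with samples left out. Of the mtDNA genes, 7 in place of 11 were lower under limma without a filter. The cause of these changes was not tested. The rank of LRPPRC, 6 by FPKM, was 2 per kilobase of the canonical transcript. The count of all genes past both thresholds, 875, was 123 to 428 under limma, whose pseudocount shrinks fold changes of low genes. Without a filter on low counts the median log2 fold change was −0.13, over 31369 genes with those of low counts included. The members' fold changes stayed near those of the main setting, as for TFAM (0.646 against 0.644) and LRPPRC (−0.146 against −0.148). The split of all calls under upper quartile normalization was 3463 higher and 4256 lower against 3949 and 3766. Same-numbered samples had correlations of deviations from their group means of −0.0032, −0.066 and −0.054. With means of only 3 samples, this check cannot show whether same-numbered samples were prepared together, and the labels do not say. The replicate block gave 7065 genes at an adjusted p under 0.05 in place of 7715. It removed the calls of LRPPRC and PPARA and gave 12 higher PGC-1 or NRF1 partners in place of 15. It also gave 9 higher and 3 lower RNA processing genes in place of 10 and 4, and 10 lower mtDNA genes in place of 11. A block cannot change the pair differences in this balanced design, so they say nothing about stability. With 3 samples a group, changes of the size of those of NRF1 or TEFM turned on single samples, and exact tests could not go below 0.1.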
